A study of Capra hircus with 4 samples.

Results

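The RAB genes encode the Rab family of small GTPases. They were the goat genes whose name in the authors' table, which pairs assembled sequences (unigenes) with goat genes, consists of RAB, a number and at most 1 letter. This rule gave 35 RAB genes, built from 42 unigenes, of 11208 named goat genes. At least 20 counts summed over the 4 libraries were found for 28 of the 35 RAB genes and for 8633 of all named genes.

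RNA of the longissimus dorsi muscle of Cashmere goats aged 2 months was sequenced in 4 libraries, 1 from the control group and 3 from the ractopamine group. Ractopamine, a β2-adrenergic agonist, was given by mouth once daily at 1 mg/kg for 28 dosing days, which were followed by 21 withdrawal days. The study asked which transcripts mark the use of such agonists. The labels number the treated libraries 1, 2 and 3, give no day for any of them and do not say whether they came from separate animals. The series calls them replicates, although the study's methods describe sequencing at several time points, dosing day 21 and withdrawal days 3 and 21. The spread between these libraries may therefore be technical or due to time, and p-values measure that spread only. The label of the other group says only that it is the control, and no treatment is named for it.

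Rab proteins are molecular switches that sit on the membranes of organelles and vesicles. Bound to GTP they recruit effectors that tether, move or fuse vesicles, and bound to GDP they are taken off the membrane by GDP dissociation inhibitors (GDI). Exchange factors load the GTP and GTPase-activating proteins trigger its hydrolysis. Each Rab marks a set of compartments, and in muscle several of them take part in moving the glucose transporter GLUT4 to the cell surface and in autophagy.

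Rab proteins share a GTP-binding fold. The gene names rest on a protein match, so motifs of this fold describe the unigenes and are not separate support for the names. A P-loop motif (8 codons that contact the phosphates of GTP, also called Walker A) and the switch II motif after it were found in 1 open frame, of all 6 searched, in 24 of the 42 RAB unigenes. Both motifs were found in 32 of 21195 named unigenes in all, or 0.151%. The switch II pattern searched begins with a tryptophan, so this share covers that pattern only and not all GTP-binding proteins. The P-loop windows are shown for 5 of the RAB genes highest in the control library and for RAB21, which had the lowest values of the 10 highest RAB genes in treated libraries 1 and 3. Each window is read from the unigene 5′ to 3′ in the coding direction, and the 8 P-loop codons are in capitals.
RAB12: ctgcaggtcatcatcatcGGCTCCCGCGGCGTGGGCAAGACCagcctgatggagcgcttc
RAB7A: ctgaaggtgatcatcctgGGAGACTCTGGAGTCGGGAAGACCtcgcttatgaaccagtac
RAB2A: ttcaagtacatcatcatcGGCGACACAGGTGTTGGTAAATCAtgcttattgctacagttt
RAB5B: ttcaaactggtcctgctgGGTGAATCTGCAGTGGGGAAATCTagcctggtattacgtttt
RAB10: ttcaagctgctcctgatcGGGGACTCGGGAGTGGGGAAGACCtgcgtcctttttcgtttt
RAB21: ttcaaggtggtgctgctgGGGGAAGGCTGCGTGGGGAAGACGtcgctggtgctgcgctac

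The 6 windows of 60 bases were identical at 29 to 43 positions for any pair. They lie in unigenes c13880_g1 (bases 1635 to 1694, minus strand), c21395_g1 (259 to 318), c11165_g2 (307 to 366), c8726_g1 (230 to 289), c1756_g1 (704 to 763) and c10747_g2 (1005 to 1064, minus strand), in the order shown. Positions count from 1 at the start of the assembled unigene, which has no genome build, and chromosome positions were not taken here. No exact run longer than 24 bases was shared by any pair of RAB unigenes, over 861 pairs with a median longest run of 12 bases.

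Rab proteins are held in membranes by lipid chains on cysteines at their carboxyl end. A stop codon was sought only after a switch II motif. It was reached in 29 RAB unigenes, and all 29 had a cysteine codon among the last 5 codons. The other RAB unigenes lacked the motif and were not searched for an end. The ends of the coding sequence are shown for the 2 names that joined unlike unigenes, with those cysteine codons in capitals.
RAB11A, unigene c810_g1: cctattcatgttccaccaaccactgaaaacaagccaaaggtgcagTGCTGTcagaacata
RAB11A, unigene c12179_g1: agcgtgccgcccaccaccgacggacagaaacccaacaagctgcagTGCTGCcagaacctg
RAB1B, unigene c11025_g1: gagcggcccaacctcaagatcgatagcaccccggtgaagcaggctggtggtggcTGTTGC
RAB1B, unigene c11988_g1: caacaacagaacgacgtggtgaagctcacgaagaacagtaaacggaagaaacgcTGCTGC

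The windows were compared base by base back from the stop codon, with no gaps, so a shifted stretch counts as different. Those of the 2 RAB11A unigenes were identical at 28 of 60 positions, and those of the 2 RAB1B unigenes at 23 of 60. The best Swiss-Prot match of c12179_g1 is RAB11B, and its identity to the goat protein named RAB11A is 91%. For c11988_g1 the match is RAB35, with 65% identity to RAB1B. RAB19, with 57% and 63% identity, matched RAB43 best, and RAB33A, with 77% identity, matched RAB33B best. The names of these unigenes are thus uncertain, while 36 of the 42 RAB unigenes had the same name in both tables and 29 had 100% identity. Of 59 RAB symbols in the goat assembly ARS1.2, 35 were paired with a unigene.

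Expected counts, which estimate the fragments per unigene, totalled 8533046 in the control and 7962590, 7339521 and 6675218 in treated libraries 1, 2 and 3. Unigenes with a goat gene name took 71.3% of the control counts and 50.1%, 1.82% and 40.4% of the treated ones, which left only 133809 named counts in treated library 2. In treated library 2, 13 of the 35 RAB genes were expected to reach 3 counts at their control share, against 32 in each of the other treated libraries. A floor of 3 counts equals 0.493 counts per 1000000 named counts (cpm) in the control and 0.752, 22.4 and 1.11 cpm in treated libraries 1, 2 and 3. One unigene paired with TFCP2L1 took 15.3% of the named counts of treated library 2 and 0.119% to 0.431% elsewhere, and results are given with and without that library. Of 14 markers of skeletal muscle fibre, 8 were paired, with a summed level of 115280 cpm in the control and 118340 to 194191 cpm in the treated libraries, most of it CKM, MYH4 and TNNT3. The name ACTA1, skeletal muscle actin, had only 130 counts in the control and 6, 0 and 3 in the treated libraries (edgeR log2 difference -4.0). The name ACTA2 had 238187 counts in the control, and whether these actin names are right was not tested. MYH2, a fast myosin, had an x-fold of 0.165 in treated library 1.

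As a family, the RAB genes took a smaller share of the named counts in each treated library than in the control library, at 0.722, 0.722 and 0.720 times the control share, and the median gene of all those tested was also lower. The 35 genes held 10897 counts in the control, or 0.179% of the named counts (95% Wilson interval 0.176% to 0.182%). They held 5158 counts in treated library 1 (0.129%, 0.126% to 0.133%), 173 in treated library 2 (0.129%, 0.111% to 0.150%) and 3477 in treated library 3 (0.129%, 0.125% to 0.133%). Relative to the median x-fold of all tested genes, 0.753, 0.968 and 0.728 in treated libraries 1, 2 and 3, the summed share stood at 0.959, 0.746 and 0.988, so in treated libraries 1 and 3 it differed from the control about as the median gene did. The 3 treated shares lay below the control interval and were alike on the named total. With 1 control library the difference has no replicate check on the control side. The likeness depends on that total, 15.3% of which was TFCP2L1 in treated library 2. The summed share was not computed on other totals. Relative to all expected counts, the median log2 x-folds of the RAB genes were -0.70, -5.35 and -1.19 in treated libraries 1, 2 and 3. Intervals here and below cover counting error only. In a bulk sample, fewer cells of a type and less RNA per cell cannot be told apart.

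**Figure D1:**
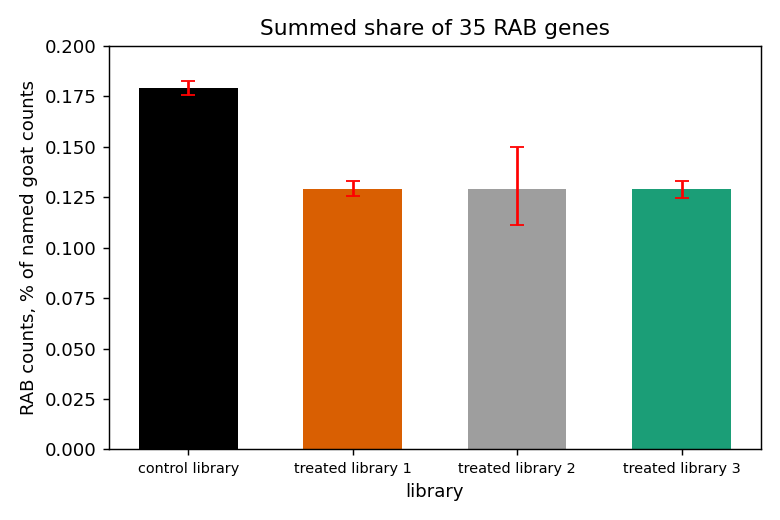
The bars give the summed counts of the 35 RAB genes as a percent of the counts of all named goat genes in each library, and the red lines are 95% Wilson intervals. The control library stands at 0.179% and the 3 treated libraries at 0.129% each, with the widest interval in treated library 2.

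The median RAB gene differed less from the control than the summed share did. The x-fold, the ratio of a gene's share of named counts in a treated library to that in the control with 0.5 counts added, had a median log2 over the 28 RAB genes of -0.19, -0.06 and -0.37 in treated libraries 1, 2 and 3. The medians over all 8633 genes were -0.41, -0.05 and -0.46. With the median of all genes set to 1 the RAB medians turned to 0.22 and 0.090 in treated libraries 1 and 3. Below the control were 21, 14 and 21 of the 28 RAB genes in treated libraries 1, 2 and 3, and below the median gene 13, 14 and 11. The share of all genes below the control was not counted, but their median lay below it in each treated library. The counts below the control are therefore not a trait of the RAB genes alone. The 10 RAB genes highest in the control, which held 84.5% of the RAB counts there, held 81.8%, 65.9% and 81.6% in the treated libraries.

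With all 3 treated libraries as replicates, no RAB gene was called by edgeR at an adjusted p below 0.05. Of all genes, 0.0927% (8) were called higher and 0.753% (65) lower, against 22 and 29 with TMM factors and none by DESeq2. An unadjusted p below 0.05 was found for 3 RAB genes (14.5% of all genes), RAB33A, RAB21 and RAB40C, and DESeq2 gave 0 RAB genes at either limit. The comparison had little reach, since on simulated counts for 8633 genes with the fitted spread edgeR recovered 29 of 200 genes changed by 3 on the log2 scale.

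By the limits of the study's methods, x-fold above 3 or below 0.6, 7 RAB genes lay below 0.6 in treated library 1 (37.8% of all genes did), 6 in treated library 2 (31.3%) and 6 in treated library 3 (38.1%). None lay above 3 in treated libraries 1 (5.13%) or 3 (2.73%), and 3 did in treated library 2 (15.7%). The RAB share below 0.6 was 25%, 21.4% and 21.4% in turn, under that of all genes in every library, but this order turned with 1 unigene per gene in treated library 1 (10 of 28 RAB genes against 35.2% of all genes) and relative to all expected counts in treated libraries 2 (28 of 28 against 99.0%) and 3 (21 of 28 against 72.5%). The interval lay wholly below 1 for 13 RAB genes in treated library 1 (45.2% of all genes) and for 14 in treated library 3 (43.6%). Below 0.6 in both treated libraries 1 and 3 were 4 RAB genes (25.4% of all genes), RAB21, RAB31, RAB33A and RAB40C, and RAB40C was the 1 gene below 0.6 in all 3 (13.5%), where its value in treated library 2 rests on 0 counts and the added 0.5 (x-fold 0.332, 95% exact interval 0 to 2.54). These counts share 1 control library. On the simulated counts with the fitted spread, the same limits called 2629 unchanged genes, among 8633 genes, in 1 treated library against the control. A call by these limits in 1 library is therefore weak on its own.

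**Figure D2:**
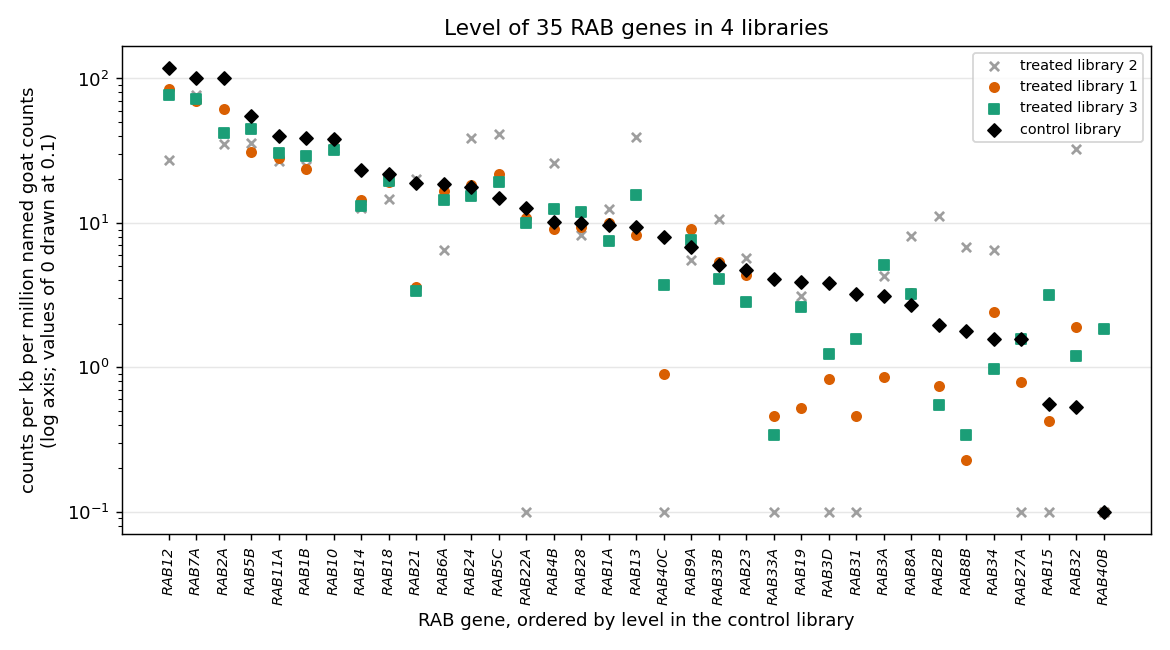
Each RAB gene has 4 symbols, 1 per library, for its counts per kb of unigene length and per 1000000 named counts on a log axis, ordered by the control library. Levels run from 118 for RAB12 to 0 for RAB40B in the control, and the crosses of treated library 2 scatter most among the low genes.

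In the control muscle the highest levels per length were those of RAB12, RAB7A and RAB2A. Per kb and 1000000 named counts, RAB12 stood at 118, RAB7A at 101, RAB2A at 101, RAB5B at 55.0, RAB11A at 40.0, RAB1B at 39.0, RAB10 at 38.2, RAB14 at 23.1, RAB18 at 21.8 and RAB21 at 19.0. RAB7A and RAB2A were neighbours that one library cannot order. RAB11A and RAB1B were divided by the summed length of 2 unlike unigenes, 3.61 and 4.52 kb, and their places beside RAB10 depend on that. By the sum of the deposited TPM, RAB12, RAB7A and RAB2A kept the first 3 places. RAB11A (83.5 TPM) and RAB1B (83.3 TPM) then stood above RAB5B (56.7 TPM) and RAB10 (34.6 TPM). Over the 28 RAB genes the levels of treated libraries 1 and 3 ranked much like those of the control (Spearman's correlation 0.91 and 0.90 across genes of unequal length and count, with no test), and those of treated library 2 less so (0.70).

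Among the Rabs of the endoplasmic reticulum and Golgi, RAB2A was low in all treated libraries. RAB2A, which acts between the endoplasmic reticulum and the Golgi, had 216 cpm in the control and 132, 74.7 and 89.7 cpm in the treated libraries. All treated libraries lay below the control, with x-folds of 0.610 (95% exact interval 0.550 to 0.675), 0.364 (0.166 to 0.639) and 0.417 (0.361 to 0.477). Relative to the median gene they were 0.810, 0.376 and 0.572. In edgeR its log2 difference was -1.10 ± 0.68 (SE, 3 treated against 1 control) with an adjusted p of 0.482, so it was not called. RAB2B, its paralog, was under 20 counts in all, with 8 in the control and 2, 1 and 1 in the treated libraries.

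RAB1B and RAB1A, which direct vesicles from the endoplasmic reticulum to the Golgi, had unlike values in treated library 1. RAB1B had 176 cpm in the control, and 106, 112 and 130 in treated libraries 1, 2 and 3. RAB1A had 51.9 cpm in the control, and 53.4, 67.3 and 40.0. The intervals of the x-folds did not overlap in treated library 1, at 0.604 (0.538 to 0.676) for RAB1B and 1.03 (0.860 to 1.23) for RAB1A, but overlapped in treated library 3, at 0.742 (0.655 to 0.836) and 0.773 (0.614 to 0.962). Relative to the median gene, RAB1B was at 0.802 and 1.02 in treated libraries 1 and 3, and RAB1A was at 1.37 and 1.06. Within the RAB1B name, the unigene matching RAB1B (936 control counts) and that matching RAB35 (136) stood at 0.608 and 0.575 in treated library 1 and at 0.738 and 0.769 in treated library 3, with overlapping intervals.

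RAB18, found on the endoplasmic reticulum and on lipid droplets, was near its control level of 55.5 cpm, with 49.4, 37.4 and 50.0 in the treated libraries. Its x-folds of 0.890, 0.739 and 0.903 had intervals that all reached 1, and relative to the median gene it was at 1.18, 0.764 and 1.24. RAB6A, which acts in traffic from the Golgi, lay below 0.6 only in treated library 2, where it had 3 counts (x-fold 0.408, 0.072 to 1.03).

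RAB33A, a Golgi Rab by name, was low in treated libraries 1 and 3. Its counts were 27 in the control and 2, 0 and 1 in treated libraries 1, 2 and 3, the x-folds being 0.139 (0.013 to 0.450) in treated library 1 and 0.123 (0.002 to 0.507) in treated library 3. In treated library 2 its 0 counts lie under the floor of 3 counts and give no bound below the control. It had the smallest p of the family in edgeR, with a log2 difference of -3.24 ± 1.12 (SE), an unadjusted p of 0.00622 and an adjusted p of 0.146. RAB33B, which links the Golgi to autophagy, had 88, 61, 4 and 31 counts, with x-folds of 1.06 (0.750 to 1.48) and 0.803 (0.510 to 1.21) in treated libraries 1 and 3. As the RAB33A unigene matches RAB33B best in Swiss-Prot, its identity remains uncertain.

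RAB34, which acts at the Golgi and in forming cilia, was above 3 in treated library 2 on 1 count there, against 11 in the control (x-fold 5.93, 0.096 to 28.4). In treated libraries 1 and 3 it had 11 and 3 counts. It was the 1 RAB gene below 0.6 between treated libraries 3 and 1 (19.4% of all genes).

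Among the endosomal Rabs, RAB21 was low in both of the deeper treated libraries. RAB21, an early endosome Rab known for moving integrins, had 128 counts or 21.0 cpm in the control. It had 16 counts (4.01 cpm) in treated library 1, 3 counts (22.4 cpm) in treated library 2 and 10 counts (3.71 cpm) in treated library 3. The x-folds were 0.196 (0.106 to 0.322), 1.24 (0.217 to 3.19) and 0.184 (0.083 to 0.335), so treated libraries 1 and 3 were low and alike while treated library 2 could not be placed at its depth. RAB21 and RAB33A were the 2 RAB genes whose interval lay wholly below 0.6 in both treated libraries 1 and 3 (9.86% of all genes). In edgeR, RAB21 had a log2 difference of -2.04 ± 0.82 (SE), an unadjusted p of 0.0171 and an adjusted p of 0.211.

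RAB5B and RAB5C, paralogs that drive fusion of early endosomes, lay on opposite sides of the control. RAB5B had 197 cpm in the control and 110, 127 and 161 in treated libraries 1, 2 and 3. RAB5C had 21.7 cpm in the control and 31.8, 59.8 and 28.2. Every treated library was below the control for RAB5B and above it for RAB5C. The x-folds in treated library 1 were 0.562 (0.503 to 0.627) and 1.47 (1.14 to 1.89), and in treated library 3 they were 0.819 (0.731 to 0.914) and 1.30 (0.966 to 1.74), with no overlap of the intervals in either. Relative to the median gene, RAB5B was at 0.747 in treated library 1 but at 1.12 in treated library 3, and RAB5C was at 1.95 and 1.79. RAB5C was the 1 RAB gene whose interval lay wholly above 1 in treated library 1 (20.3% of all genes). By edgeR neither was called, with log2 differences of -0.56 ± 0.70 (adjusted p 0.767) and 0.74 ± 0.77 (adjusted p 0.709).

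RAB11A, the Rab of the recycling endosome, had 144 cpm in the control and 101, 97.2 and 109 in the treated libraries. The sum joined 2 unigenes that differed. The unigene matching RAB11A itself had 169, 135, 2 and 81 counts in the control and treated libraries 1, 2 and 3. The unigene matching RAB11B had 709, 268, 11 and 214 counts. The first had x-folds of 1.22 (0.964 to 1.54) and 1.08 (0.819 to 1.42) in treated libraries 1 and 3. The second had 0.577 (0.499 to 0.664) and 0.682 (0.582 to 0.795), below the first with no overlap of the intervals in both libraries. Relative to the median gene the first was at 1.62 and 1.49 and the second at 0.767 and 0.936. This split was examined after the values were seen and was not tested over libraries.

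RAB14, which connects the Golgi and endosomes, had 82.3 cpm in the control and 51.6, 44.8 and 46.3 after treatment, and x-folds of 0.628, 0.590 and 0.565 that lay close to the limit of 0.6, or 0.834, 0.609 and 0.775 relative to the median gene. RAB31 and RAB22A, near relatives on early endosomes, were low in level. RAB31 had 32 counts in the control and 3, 0 and 7 in the treated libraries, and x-folds of 0.164 (0.028 to 0.457) and 0.521 (0.184 to 1.14) in treated libraries 1 and 3. RAB22A had 142, 80, 0 and 50 counts, with 0.861 and 0.800 in treated libraries 1 and 3. In treated library 2, RAB22A had 0 counts where 3.12 were expected at the control share, with an interval that reached above the control (0 to 1.197), and it was 1 of 4 tested RAB genes at 0 there (26.2% of all genes tested).

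RAB12 and RAB7A, the Rabs of highest level, work on the late endosome and lysosome route. RAB12, known for sending the transferrin receptor to lysosomes and for a part in autophagy, had 226 cpm in the control and 162, 52.3 and 147 cpm in the treated libraries. RAB7A, which takes late endosomes and autophagosomes to the lysosome, had 206 cpm in the control and 141, 157 and 146 in the treated libraries. The x-folds of RAB12 were 0.715 (0.650 to 0.786), 0.247 (0.093 to 0.477) and 0.649 (0.578 to 0.726), and those of RAB7A were 0.686 (0.620 to 0.758), 0.781 (0.471 to 1.17) and 0.711 (0.632 to 0.796). Both genes were below the control in all treated libraries, but relative to the median gene RAB12 was at 0.950, 0.256 and 0.891 and RAB7A at 0.911, 0.807 and 0.976. In edgeR the adjusted p was 0.625 for RAB12 and 0.817 for RAB7A, and in treated library 2 RAB12 was the 1 RAB gene with an interval wholly below 0.6 (4.87% of all genes).

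The 4 tested Rabs of exocytosis and the plasma membrane were RAB3A, RAB8A, RAB10 and RAB13. Their median log2 x-fold was -0.09, 1.46 and 0.505 in treated libraries 1, 2 and 3, against -0.41, -0.05 and -0.46 over all genes. In treated library 2 they had only 1, 2, 17 and 7 counts. In treated library 3 the Golgi, early endosome, late endosome and cilium lists had medians of -0.43, -0.36, -0.35 and -0.73. The exocytosis list includes Rabs of GLUT4 transport, and its members RAB3D, RAB8B and RAB27A were under 20 counts and not tested. RAB10, which serves GLUT4 transport in fat cells, had 147 cpm in the control and 147, 127 and 122 after treatment, an x-fold of 0.998 (0.898 to 1.11) in treated library 1 and of 0.831 (0.729 to 0.943) in treated library 3, or 1.33 and 1.14 relative to the median gene. RAB13, which serves it in muscle cells, had 76, 44, 7 and 56 counts, or 12.5, 11.02, 52.3 and 20.8 cpm. Its x-folds were 0.887 (0.595 to 1.30), 4.46 (1.63 to 9.06) and 1.67 (1.16 to 2.38), so it was above the control in treated libraries 2 and 3 and not in treated library 1. RAB13 was the 1 RAB gene with an interval wholly above 1 in treated library 3 (13.9% of all genes), and with RAB5C 1 of 2 in treated library 2 (10.7%).

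RAB8A, which also serves GLUT4 transport in muscle cells, had 30 counts in the control and 24, 2 and 16 after treatment. Its x-folds were 1.23 (0.683 to 2.16), 3.73 (0.351 to 12.0) and 1.22 (0.613 to 2.28), all with intervals that reached 1. RAB8B, its paralog, had 12, 1, 1 and 1 counts and was not tested. In edgeR, RAB13 had a log2 difference of 0.80 ± 0.85 (adjusted p 0.713) and RAB8A of 0.43 ± 0.87 (adjusted p 0.876).

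RAB40C, a Rab with a SOCS box that joins it to a ubiquitin ligase, had 68 counts or 11.2 cpm in the control. It had 5 counts (1.25 cpm) in treated library 1, 0 in treated library 2 and 14 counts (5.19 cpm) in treated library 3. The x-folds were 0.122 (0.035 to 0.275) and 0.478 (0.241 to 0.834) in treated libraries 1 and 3, and 0 counts in treated library 2 gave no bound below the control. The log2 difference in edgeR was -1.92 ± 0.86 (SE), with an unadjusted p of 0.0326 and an adjusted p of 0.286. RAB40B, its paralog, had 1 count in treated library 3 and none elsewhere.

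**Figure D3:**
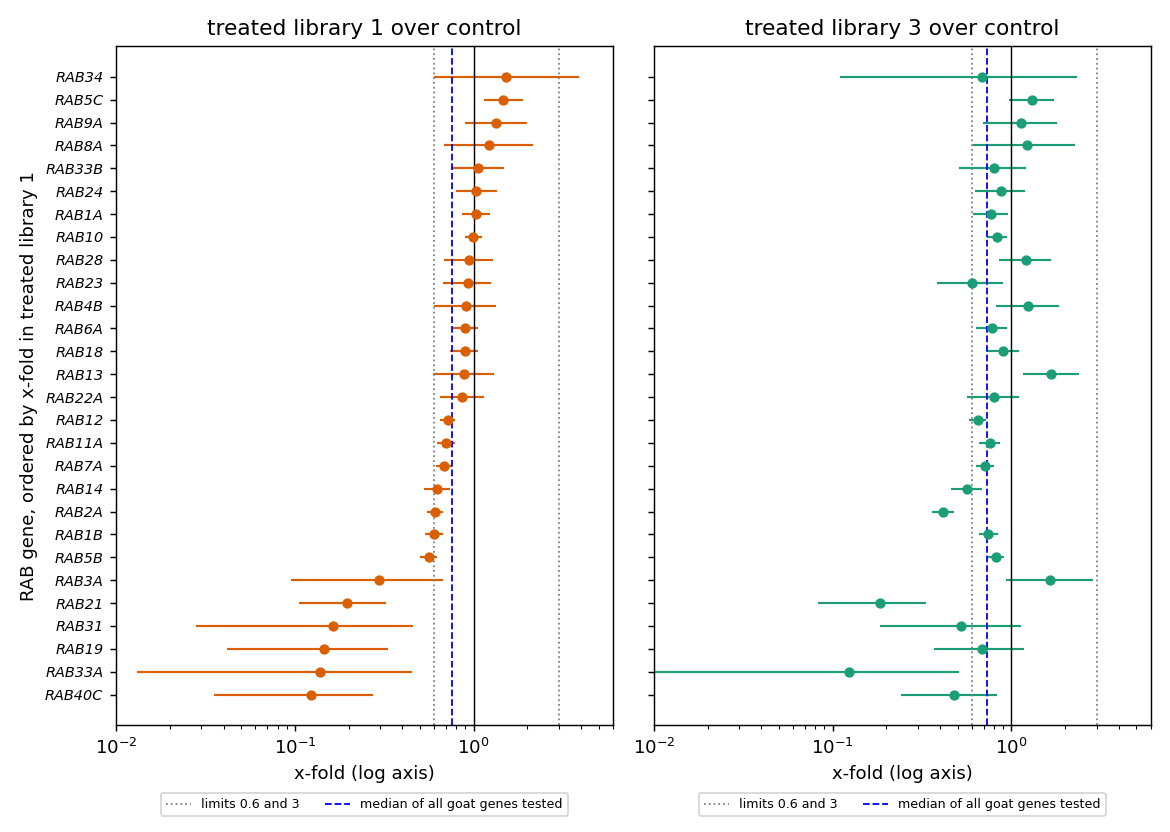
Points give the x-fold of the 28 RAB genes over the control library on a log axis, with 95% exact intervals for counting error, in treated libraries 1 and 3. The group of 6 genes at the bottom left, from RAB40C to RAB3A, stands apart at 0.122 to 0.296 in treated library 1, and RAB21 and RAB33A are low in both panels.

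Between treated libraries 1 and 3, 5 RAB genes lay outside the same limits, 2 of them with intervals that reached 1. RAB19, RAB31, RAB3A and RAB40C were more than 3 times as high in treated library 3 as in treated library 1 (4.56% of all genes), at 4.71 (1.78 to 17.4), 3.17 (0.788 to 20.7), 5.58 (2.36 to 17.7) and 3.90 (1.41 to 14.7). RAB34, the 1 RAB gene below 0.6, was at 0.450 (0.072 to 1.53). RAB3A, a Rab of regulated secretion, had 33, 6, 1 and 24 counts, with x-folds of 0.296 (0.095 to 0.670) in treated library 1 and 1.65 (0.928 to 2.86) in treated library 3. The unigenes named RAB19 had 57, 5, 1 and 17 counts in sum. The 7 RAB genes below 0.6 in treated library 1 had a median GC content of 59.1% against 48.4% for the other 21, and the part of base composition in these values was not tested.

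The remaining tested RAB genes, RAB4B, RAB9A, RAB23, RAB24 and RAB28, lay between 0.601 and 1.34 in treated libraries 1 and 3. The 7 RAB genes under 20 counts were RAB2B, RAB3D, RAB8B, RAB15, RAB27A, RAB32 and RAB40B. RAB32, a Rab of lysosome-related organelles, had 3, 7, 4 and 3 counts, and its 4 counts in treated library 2 equalled 29.9 cpm against 0.493 cpm in the control.

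Larger parts of the exchange factors, GTPase-activating proteins and effectors than of the RAB genes lay below 0.6 in treated libraries 1 and 3, and a smaller part of the GDI, escort and prenylation genes did. Of the GDI, escort and prenylation genes, 1, 1 and 0 of 7 tested lay below 0.6 in treated libraries 1, 2 and 3 (37.8%, 31.3% and 38.1% of all genes). GDI2, a GDP dissociation inhibitor, had 223 cpm in the control and 128, 381 and 180 in the treated libraries, and RABAC1, a prenylated Rab acceptor, had 65.2 and 62.1, 67.3 and 93.0. Of the exchange factors, 16, 11 and 14 of 27 lay below 0.6, with SBF2 at 0.367, 0.292 and 0.402 and DENND4B at 0.551, 0.388 and 0.623. Of the GTPase-activating proteins, 13, 5 and 11 of 21 did, with TBC1D9B at 0.523, 0.792 and 0.599 and TBC1D15, which acts on RAB7A, at 0.569, 0.228 and 0.438.

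Of the effectors, 17, 19 and 17 of 33 lay below 0.6, with PLEKHM2, which couples lysosomes to kinesin, at 0.329, 0.153 and 0.582 and RILPL1 at 0.573, 0.324 and 0.758. The median log2 x-folds in treated libraries 1 and 3 were -0.86 and -0.75 for exchange factors, -0.93 and -0.74 for GTPase-activating proteins and -0.74 and -0.74 for effectors, all below the RAB medians and those of all genes. The median unigene length was 3.78, 3.56 and 3.24 kb in these lists, 1.88 kb for the RAB genes and 2.23 kb for all genes tested. Across all genes longer sums had lower x-folds (Spearman's correlation -0.24 and -0.37 in treated libraries 1 and 3), and the part of length in the difference between the lists was not tested. By edgeR 1 exchange factor was called, DENND5B, with 24 counts in the control and 0 in all treated libraries (adjusted p 0.0467), and no gene of the other 3 lists was.

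**Figure D4:**
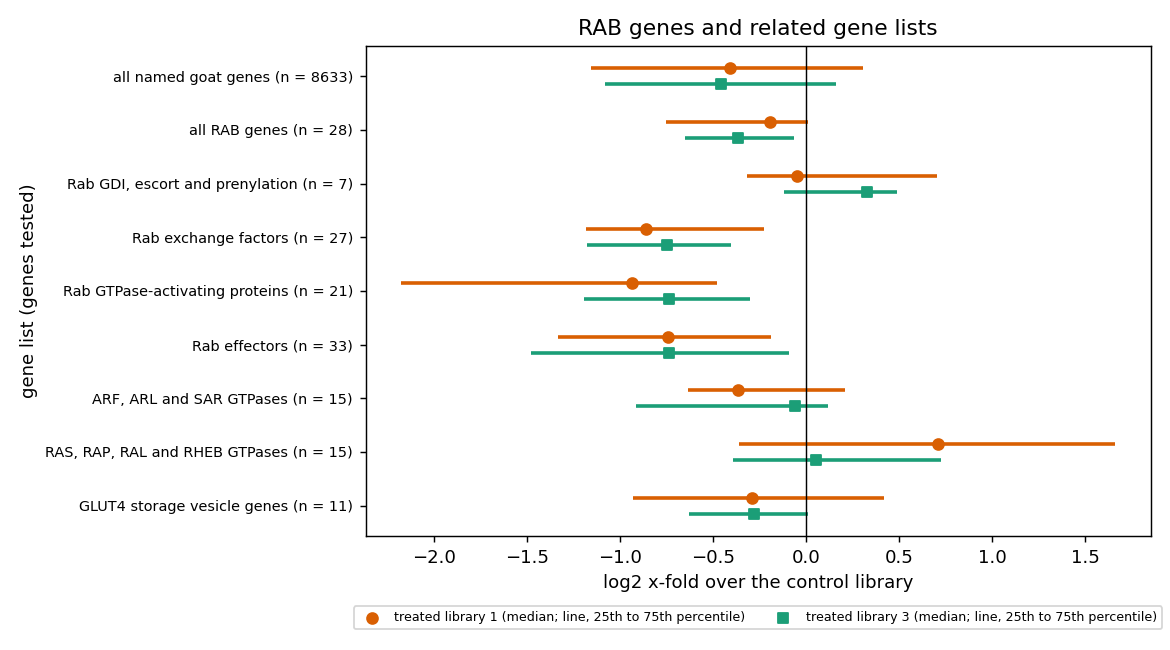
Symbols give the median log2 x-fold over the control library of each gene list in treated libraries 1 and 3, and lines run from the 25th to the 75th percentile of its genes. The exchange factors, GTPase-activating proteins and effectors lie left of the RAB genes (-0.19 and -0.37), and the GDI, escort and prenylation genes lie right of them.

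The other small GTPase families were counted in the same way. Of ARF, ARL and SAR genes, 3, 3 and 5 of 15 were below 0.6 (37.8%, 31.3% and 38.1% of all genes). Of RAS, RAP, RAL and RHEB genes, 2, 3 and 2 of 15 were. Above 3 were 4, 4 and 1 of the RAS list (5.13%, 15.7% and 2.73% of all genes), against 0, 3 and 0 RAB genes. RRAD, an inhibitor of calcium channels, was the highest of them at 243 cpm in the control and 3656, 89.7 and 208 in the treated libraries. RASD1, a Ras-like gene induced by glucocorticoid, had 35.3 cpm in the control and 296, 0 and 3.34 in the treated libraries, and both were thus high in treated library 1 alone.

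Of 11 genes of GLUT4 storage vesicles, 3 lay below 0.6 in each treated library (37.8%, 31.3% and 38.1% of all genes). SLC2A4, the GLUT4 gene, had 90.4 cpm in the control and 148, 82.2 and 81.2 in the treated libraries, and SORT1, the sorting receptor of these vesicles, had 162 and 100, 37.4 and 34.1. LNPEP, a resident aminopeptidase, had 73 counts in the control and 1, 0 and 1 in the treated libraries and was called by edgeR (adjusted p 0.0135). TBC1D4, the GTPase-activating protein that restrains RAB10, RAB8A and RAB13, had 278 counts in the control and 20, 0 and 67, with x-folds of 0.112 (0.066 to 0.173) and 0.547 (0.410 to 0.712) in treated libraries 1 and 3. MYO1C was also low in treated library 1, at 0.446 (0.364 to 0.541), but at 0.862 (0.719 to 1.03) in treated library 3. Not all other genes of the list were low. TBC1D1, the paralog of TBC1D4, was at 1.96 (1.12 to 3.51) and 1.70 (0.865 to 3.25) in treated libraries 1 and 3. SNAP23 was at 2.02 and 0.767 there, and STX4 at 0.802 and 1.65. All genes of this list other than SLC2A4 and SORT1 were named after their values were seen.

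Markers of other cell types differed between the libraries, and their part in the RAB values was not tested. The summed level of 9 paired myeloid markers was 4.44 cpm in the control and 29.6, 44.8 and 9.64 in treated libraries 1, 2 and 3, with 1, 1, 6 and 2 of the 9 at 0. For 5 adipocyte markers it was 53.4 and 282, 1143 and 66.0 cpm, with none at 0, and for 5 fibroblast markers 125 and 200, 2429 and 298 cpm. For 5 nerve markers it was 38.0 and 259, 217 and 70.4 cpm. Endothelial markers, 8 in number, summed to 348 and 249, 1001 and 486 cpm. VWF alone had 179 cpm in the control and 54.1, 366 and 182 cpm in treated libraries 1, 2 and 3. In treated library 1, PECAM1, ESAM and TEK were above the control, and CDH5, KDR, EMCN and TIE1 were below it. The lower endothelial sum in treated library 1 thus follows VWF and was not shared by all markers. The 6 smooth muscle markers summed to 39270 and 24861, 32076 and 55588 cpm, almost all of it ACTA2. In the control ACTA2 had 39135 cpm, against 52.9 for RGS5, 34.7 for TAGLN and 18.6 for MYH11. The sum thus follows 1 name and is not a level of smooth muscle, and whether the actin names are right was not tested. SLC4A1, the 1 of 7 red blood cell markers paired, was at 4.27 and 5.76, 14.9 and 7.04 cpm.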

How the data were processed

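Longissimus muscle RNA was compared in 1 control and 3 treated libraries, grouped by title. The authors assembled the reads into 59774 unigenes and deposited expected counts (whole numbers, not normalized), TPM and FPKM per unigene, with 1 library per file. The assembler and counter are not given in the sources used here, and FastQC 0.10.1 is listed in the submitters' processing notes. The authors also deposited a table pairing unigenes with goat proteins, with percent identity, and an annotation with the sequence and Swiss-Prot match of each unigene. FPKM values, the split over transcripts and the tables per FPKM class were not analysed here, and 0 columns of per-sample values were left unused for want of a sample.

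Expected counts were summed per gene name. The 25 paired unigenes without a name stayed out of totals and tests. They held 22.2%, 37.5%, 84.3% and 49.7% of the counts of the control and treated libraries 1 to 3. Counts were divided by the named total (6086312, 3991046, 133809 and 2697657). The x-fold used a pseudocount of 0.5 for genes with at least 20 counts, and ratios carry exact Clopper-Pearson intervals (95%). The 3 treated libraries were compared with the control by the quasi-likelihood test of edgeR 4.0.16 with Benjamini-Hochberg adjustment over 8633 genes. The spread came from the treated libraries, and the lone control library is assumed to vary alike. SE is the log2 difference divided by the square root of F. DESeq2 1.42.0 was an alternative. On simulated counts with a dispersion of 0.1 edgeR recovered 165 of 200 genes changed by 3 on the log2 scale, with 7 false calls, and at the fitted dispersion of 0.226 it recovered 29 with 1 false call. The x-fold limits, applied to 1 simulated treated library against the control, recovered 198 and 182, with 1519 and 2629 false calls. Motifs were searched in all 6 reading frames of each unigene. Python 3.11.15 and R 4.3.3 were used.

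The members and the gene lists were chosen with earlier results of these data known. Results for 1 further gene list are not reported here. Genes named were the 10 highest RAB genes per kb in the control, those outside the limits the same way in treated libraries 1 and 3 or in all 3, those above 3 in any treated library, those at 0 with at least 100 counts elsewhere, their paralogs, and the 2 highest of each related list. Other genes are named to account for all members. Alternatives were other totals, identity, single unigenes, pseudocounts, count minimums, limits, size factors and left-out libraries.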

Additional observations from a re-analysis of the deposited data

Results flagged for a closer look

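Paired unigenes without a gene name, which hold mitochondrial transcripts and enter no RAB value, took 37.5%, 84.3% and 49.7% of the expected counts in treated libraries 1, 2 and 3, against 22.2% in the control library, so that counts outside the named genes were higher in every treated library.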

How the results depend on the processing

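No paired analysis was possible because there is 1 control library, whose label carries no replicate number. The result that depends most on the processing is the direction of the RAB values. Relative to all expected counts, 13, 28 and 21 of 28 RAB genes were below 0.6 in treated libraries 1, 2 and 3 (56.5%, 99.0% and 72.5% of all genes), 12 in both treated libraries 1 and 3 and 12 in all 3, 0 were above 3 in treated library 2, and the median log2 x-folds were -0.70, -5.35 and -1.19. With the rows without a gene name counted in the total, chosen after seeing the data, the counts were the same 13, 28, 21, 12, 12 and 0, and the medians were -0.61, -5.23 and -1.13. RAB13, RAB34 and RAB8A in treated library 2 then reversed to -3.13, -2.72 and -3.39 (all counts) and to -3.01, -2.60 and -3.27 (rows without a name). With the median of all ratios set to 1, 3 RAB genes were below 0.6 in treated library 3 (21.2% of all genes), 2 in both and 0 in all 3, and the medians were 0.22 and 0.090 in treated libraries 1 and 3.

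A pseudocount of 2 left 3 RAB genes below 0.6 (13.5% of all genes) and 8 above 3 (31.9%) in treated library 2, 0 below in all 3, a median of 0.76 there and RAB40C at 0.38, reversed. With at least 1 count, 11 RAB genes were below 0.6 and 1 above 3 in treated library 1, 8 above in treated library 2 (31.3% of all genes), 2 above in treated library 3 and 7 below in both treated libraries 1 and 3, while the median in treated library 2 was 0.31 and its difference from all genes -0.16. With at least 100 counts, 2 and 3 were below in treated libraries 1 and 3, 1 in both, 0 in all 3, and 1 above in treated library 2, where the difference was 0.19. In treated library 2, 5 RAB genes were above 3 with at least 90% identity (median 0.24) or without TFCP2L1 in the total (median 0.18, chosen after seeing the data), and 8 were above with limits of 2 and 0.5 (24.5% of all genes). One unigene per gene gave 2 below 0.6 in all 3. Leaving out 1 treated library, 1 to 4 RAB genes were below 0.6 in both of the others. There were 4 without treated library 2 (25.4% of all genes) and 3 without treated library 1. Removing ND3, the mitochondrially encoded gene with a name, moved no count. For the other counts in 2 or 3 libraries at once, the share of all genes was not computed. The causes were not tested.

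By edgeR the count of RAB genes called was 0 under TMM and median-of-ratios factors, DESeq2, a minimum of 1 count, 90% identity, Swiss-Prot names and each left-out library, with 0 to 3 at an unadjusted p below 0.05. Over all genes the calls, 8 higher and 65 lower, became 22 and 29 with TMM factors, 29 and 57 with median-of-ratios factors, 0 and 0 by DESeq2, 51 and 152 with at least 1 count, 0 and 3 with 90% identity, and 13 and 9, 10 and 93, and 8 and 5 without treated libraries 1, 2 and 3. Without treated library 2 the smallest adjusted p of a RAB gene was 0.0687, and without treated library 1 it was 0.743. Depth limits treated library 2, where a floor of 3 counts equals 22.4 cpm.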
